A study of Mus musculus with 6 samples.

Results

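Plasminogen activation is described here through 6 genes: the urokinase receptor gene Plaur, the plasminogen activator genes Plau (urokinase) and Plat (tissue-type activator), and the serpin genes Serpine2, Serpini1 and Serpinf1. They were taken by gene name from a count table of 54532 genes, each name matched a single gene ID, and all 6 had enough counts to be tested. RNA sequencing had been run on retina of wild-type C57BL/6J mice, all at postnatal day 17, with 3 OIR libraries and 3 normal libraries. OIR is the usual abbreviation of oxygen-induced retinopathy, in which pups breathe high oxygen and then room air, and the oxygen-deprived retina afterwards grows abnormal vessels. No transgene or agent is named for either group, and how long or at what concentration oxygen was given is not stated in the sources used. The stated aim of the series was to search transcripts for a candidate tied to vessel growth in oxygen-starved retina.

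Urokinase and tissue-type activator are serine proteases that cut plasminogen, a circulating zymogen, into the broad protease plasmin. The urokinase receptor, held in the membrane by a lipid anchor, binds urokinase and so places plasmin formation at the cell surface, where plasmin degrades fibrin and matrix and can free growth factors. Serpins trap such proteases: protease nexin-1 (Serpine2) inhibits thrombin and urokinase, neuroserpin (Serpini1) is mainly an inhibitor of tissue-type activator in neurons, and pigment epithelium-derived factor (Serpinf1) has a serpin fold without protease inhibition and is known in the eye as a factor that restrains vessel growth.

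Depth was 15818168 to 17163513 counts per library, and 17108 genes were tested (edgeR, quasi-likelihood, Benjamini-Hochberg adjusted p, threshold 0.05). Of these, 1901 genes (11.1%) were higher and 1493 (8.73%) were lower in OIR retina, and in 36.8% the OIR and normal libraries did not overlap. These counts depend on single libraries: without Normal 3 they were 1237 higher and 769 lower, without OIR 1 there were 761 lower, and without OIR 2 there were 860 lower. The median log2 change of all tested genes was 0.01. The 5 rod markers, which define the labelled tissue, summed to 13024 to 14194 CPM (counts relative to the TMM-scaled library total) in OIR and 17143 to 18509 CPM in normal libraries. By Xist and Y-linked transcripts, 1 OIR library (OIR 2) and 2 normal libraries were male, and 2 OIR libraries and 1 normal library were female. The labels do not say whether each library came from a separate animal, so p-values measure the spread between these samples only. Summed lens markers stood apart in OIR 3, at 4960 CPM against 68.1 and 312 CPM in the other OIR libraries and 2.94 to 308 CPM in normal libraries.

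Of the 6 genes, 4 rose (11.1% of all tested genes did) and 1 fell (8.73% of all) in OIR retina, and Serpinf1 did not pass. The receptor rose most, followed by urokinase, tissue-type activator and protease nexin-1, while neuroserpin fell. The libraries of the groups did not overlap for any of the 6 genes, Serpinf1 included, beside 36.8% of all tested genes. Plaur was above the filter on low counts in none of the normal libraries and Plau in 1 of them, so both entered the test through their OIR level, and the count of 4 rises is a description. An exact two-sided permutation test of mean log2 CPM gave p = 0.1 for each gene, the smallest that 3 libraries against 3 allow. The 6 calls kept their direction and their side of the threshold in all 15 alternative settings.

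**Figure D1:**
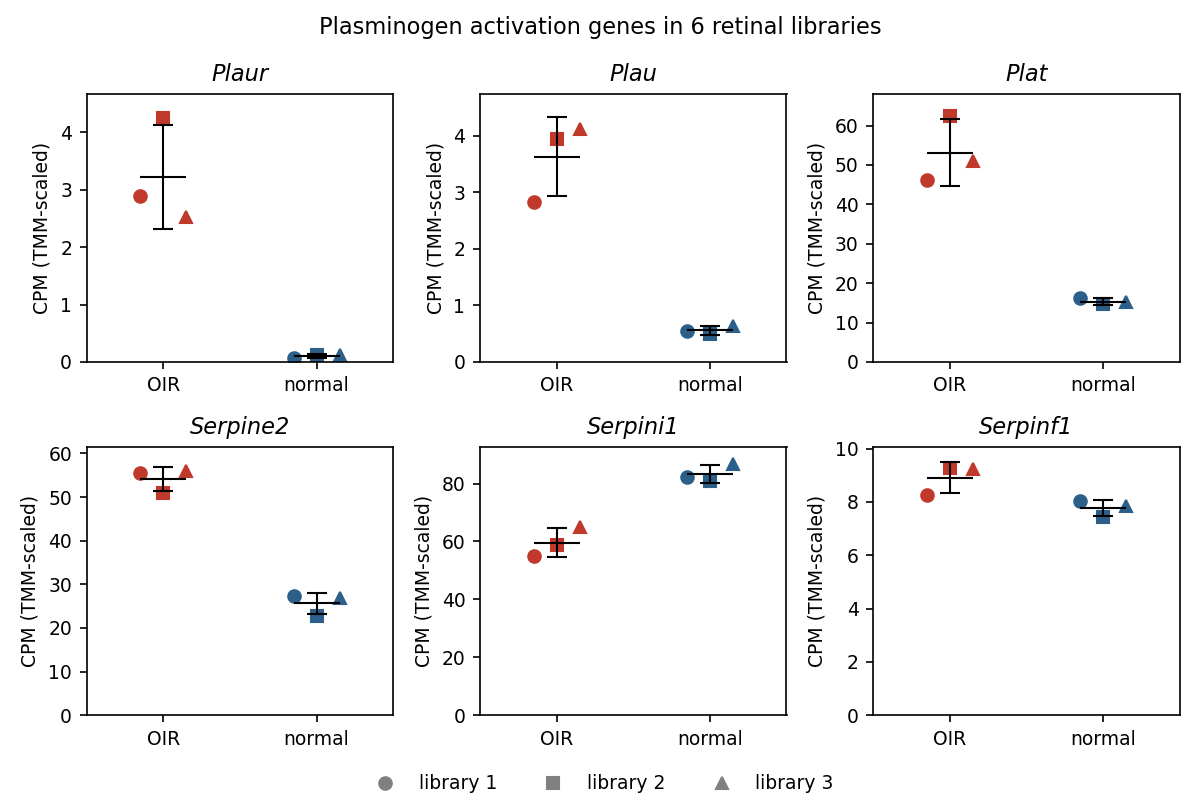
CPM (TMM-scaled) of the 6 genes in each library, OIR left of normal in every panel, with the mean and SD of 3 libraries as a bar and whiskers; circles, squares and triangles are libraries 1, 2 and 3. The OIR points lie above the normal points for Plaur, Plau, Plat, Serpine2 and Serpinf1 and below them for Serpini1.

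The urokinase receptor was close to absent from normal retina. Plaur (ENSMUSG00000046223, chromosome 7, 24462484 to 24475968, plus strand, all gene positions in mm10) had 49, 72 and 43 counts in OIR libraries 1 to 3, against 1, 2 and 2 counts in normal libraries 1 to 3. In CPM the OIR libraries stood at 2.89, 4.25 and 2.53 and the normal libraries at 0.0599, 0.122 and 0.129. OIR 2 was the highest, and the lowest OIR library was still far above the highest normal one. The fitted change was 29.3-fold, with a log2 fold change of 4.87, a standard error of 0.46 and an edgeR adjusted p of 4.97e-05. With so few normal counts the size of the fold is loosely set: the ratio of summed counts, 164 in OIR against 5 in normal retina, was 31.3 with a 95% Clopper-Pearson interval of 13.2 to 97.8, which covers counting error only. In log2 CPM with a prior count of 2, which compresses such low values, the OIR minus normal difference was 4.36 between male libraries and 3.54 between female libraries.

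The sequence around the Plaur start is shown because this gene changed most. It runs from 250 bases before to 50 bases after the RefSeq start (chr7:24462233-24462532, plus strand, GRCm38.p6). Capitals mark matches to the AP-1 motif TGANTCA, to the hypoxia response cores ACGTG and GCGTG, and to the GC box GGGCGG, each searched on both strands. No AP-1 or hypoxia match overlaps another motif, while neighbouring GC boxes abut or overlap.
Plaur: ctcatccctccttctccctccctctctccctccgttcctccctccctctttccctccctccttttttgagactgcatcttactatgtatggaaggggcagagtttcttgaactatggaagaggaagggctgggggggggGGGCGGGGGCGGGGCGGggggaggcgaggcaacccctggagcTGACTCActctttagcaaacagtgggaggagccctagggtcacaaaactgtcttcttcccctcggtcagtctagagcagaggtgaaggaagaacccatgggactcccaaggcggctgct
The window holds 1 AP-1 match (TGACTCA) that begins at position −69 from the start and 3 GC box matches that begin at −111, −105 and −100, with 0 hypoxia cores. Of 32851 such windows, 7.81% hold an AP-1 match, 43.8% a hypoxia core and 35.7% a GC box. A match describes these letters and is not evidence of binding. RefSeq windows were at hand for 4 of the 6 genes, and those of the serpins follow with each gene.

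Urokinase, the ligand of that receptor, rose from a low level too. Plau (ENSMUSG00000021822, chromosome 14, 20836660 to 20843385, plus strand) had 2.83, 3.95 and 4.11 CPM in OIR libraries 1 to 3, against 0.539, 0.487 and 0.643 CPM in normal libraries 1 to 3. OIR 1 was the lowest of its group yet several times the highest normal library. These values rest on 48, 67 and 70 counts in OIR and 9, 8 and 10 counts in normal libraries. The change was 6.47-fold (log2 2.69, standard error 0.31, edgeR adjusted p of 0.00018). The interval of the count ratio was 4.36 to 10.2. On the scale with a prior count of 2, the log2 difference was 2.52 between male and 2.54 between female libraries.

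Tissue-type activator was the more abundant activator transcript in both groups, also per length. Plat (ENSMUSG00000031538, chromosome 8, 22757727 to 22782844, plus strand) had 46.1, 62.5 and 50.9 CPM in OIR libraries 1 to 3, against 16.2, 14.6 and 15.2 CPM in normal libraries 1 to 3. OIR 2 was again the highest, as for Plaur, and the normal libraries lay close together. The change was 3.46-fold (log2 1.79, standard error 0.12, edgeR adjusted p of 4.81e-06), and without OIR 2 the log2 change was 1.65. On that same scale, male libraries differed by 1.99 and female libraries by 1.72.

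Among the serpins, protease nexin-1 rose and neuroserpin fell. Serpine2 (ENSMUSG00000026249, chromosome 1, 79794197 to 79861180, minus strand) had 55.5, 50.9 and 55.9 CPM in OIR libraries 1 to 3, against 27.3, 22.8 and 26.7 CPM in normal libraries 1 to 3. Here OIR 2 was the lowest of its group, the reverse of its place for Plaur and Plat. The change was 2.11-fold (log2 1.08, standard error 0.09, edgeR adjusted p of 2.09e-05). Serpini1 (ENSMUSG00000027834, chromosome 3, 75557547 to 75643495, plus strand) had 55.0, 58.7 and 65.0 CPM in OIR libraries 1 to 3, against 82.3, 80.7 and 86.7 CPM in normal libraries 1 to 3. Every OIR library lay below every normal library, and the OIR level was 0.716 of the normal level. The log2 change was −0.48 with a standard error of 0.08 and an edgeR adjusted p of 0.00223. Without single libraries it ranged between −0.56 and −0.43. The gene model Gm37672 lies within Serpini1 on the same strand and had 2 counts over the 6 libraries. No other annotated gene overlaps any of the 6.

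The start windows of these serpins are shown because Serpine2 and Serpini1 moved in opposite directions (Serpine2, chr1:79858616-79858915, minus strand; Serpini1, chr3:75557243-75557542, plus strand; both GRCm38.p6, 5′ to 3′ along the gene). The RefSeq start of Serpine2 lies inside the gene as the count table places it, and the Serpini1 window ends before the gene as placed there.
Serpine2: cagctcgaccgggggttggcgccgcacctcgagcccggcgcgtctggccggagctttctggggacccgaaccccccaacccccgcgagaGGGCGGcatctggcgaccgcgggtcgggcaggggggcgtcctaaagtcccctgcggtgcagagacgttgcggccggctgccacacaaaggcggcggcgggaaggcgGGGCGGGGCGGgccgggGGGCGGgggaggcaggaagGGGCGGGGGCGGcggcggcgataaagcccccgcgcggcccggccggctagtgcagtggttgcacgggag
Serpini1: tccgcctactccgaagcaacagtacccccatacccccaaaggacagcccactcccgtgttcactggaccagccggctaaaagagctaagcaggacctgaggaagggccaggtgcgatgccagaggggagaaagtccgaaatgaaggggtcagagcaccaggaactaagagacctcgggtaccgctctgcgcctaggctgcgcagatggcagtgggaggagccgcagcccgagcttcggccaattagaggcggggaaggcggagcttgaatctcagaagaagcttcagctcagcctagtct
The Serpine2 window holds 6 GC boxes, 0 AP-1 matches and 0 hypoxia cores. The Serpini1 window holds 0 matches to any of these motifs, which says only that these letters are not in this window.

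Pigment epithelium-derived factor did not pass the test. Serpinf1 (ENSMUSG00000000753, chromosome 11, 75409769 to 75422701, minus strand) had 8.25, 9.26 and 9.23 CPM in OIR libraries 1 to 3, against 8.03, 7.42 and 7.84 CPM in normal libraries 1 to 3. The lowest OIR library stood just above the highest normal one. The log2 change was 0.20 with a standard error of 0.14 and an edgeR adjusted p of 0.354, and the count ratio of 1.15 had an interval of 0.999 to 1.32. In sum, markers of pigment epithelium, a main source of this protein in the eye, were lower in OIR libraries. The 10 genes summed to 127 to 163 CPM in OIR and 191 to 362 CPM in normal libraries. Beside 8.73% of all tested genes, 5 of these markers fell: Rpe65, Ttr, Lrat, Tyr and Tyrp1, the last with overlapping libraries. Dct, Pmel, Mlana, Slc45a2 and Best1 did not pass, and Best1 had a log2 change of 0.25. The part of the pigment epithelium markers in the Serpinf1 result was not tested. In bulk tissue, fewer cells of a type and less RNA per cell cannot be told apart.
Serpinf1: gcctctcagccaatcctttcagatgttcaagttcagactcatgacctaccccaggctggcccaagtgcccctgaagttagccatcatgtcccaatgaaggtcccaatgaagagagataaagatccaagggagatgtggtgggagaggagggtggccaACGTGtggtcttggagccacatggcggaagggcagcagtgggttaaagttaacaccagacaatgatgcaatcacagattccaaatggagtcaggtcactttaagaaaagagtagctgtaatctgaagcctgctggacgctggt
This window (chr11:75422574-75422873, minus strand, GRCm38.p6) is shown as that of the gene that did not pass, and it is the only window of the 4 with a hypoxia core, ACGTG at −93. It holds 0 AP-1 matches and 0 GC boxes. As for Serpine2, the RefSeq start of Serpinf1 lies inside the gene as the count table places it.

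Per length, the order of the 6 genes differed between the groups. In OIR retina Plat stood at 8.52 ± 1.35 and Serpini1 at 8.18 ± 0.699 CPM per kilobase (SD, n = 3), and their libraries overlapped. Serpine2 followed at 6.53 ± 0.334, Serpinf1 at 3.78 ± 0.243, Plau at 1.53 ± 0.295 and Plaur at 1.23 ± 0.346 CPM per kilobase, with Plau and Plaur overlapping. In normal retina Serpini1 led at 11.4 ± 0.425 CPM per kilobase. Serpinf1 at 3.29 ± 0.132 and Serpine2 at 3.09 ± 0.297 overlapped there, and Plat at 2.46 ± 0.133, Plau at 0.235 ± 0.0336 and Plaur at 0.0395 ± 0.0144 CPM per kilobase lay below. By deposited gene length, neuroserpin transcripts thus stood alone at the top in normal retina, whereas in OIR retina those of tissue-type activator overlapped them.

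**Figure D2:**
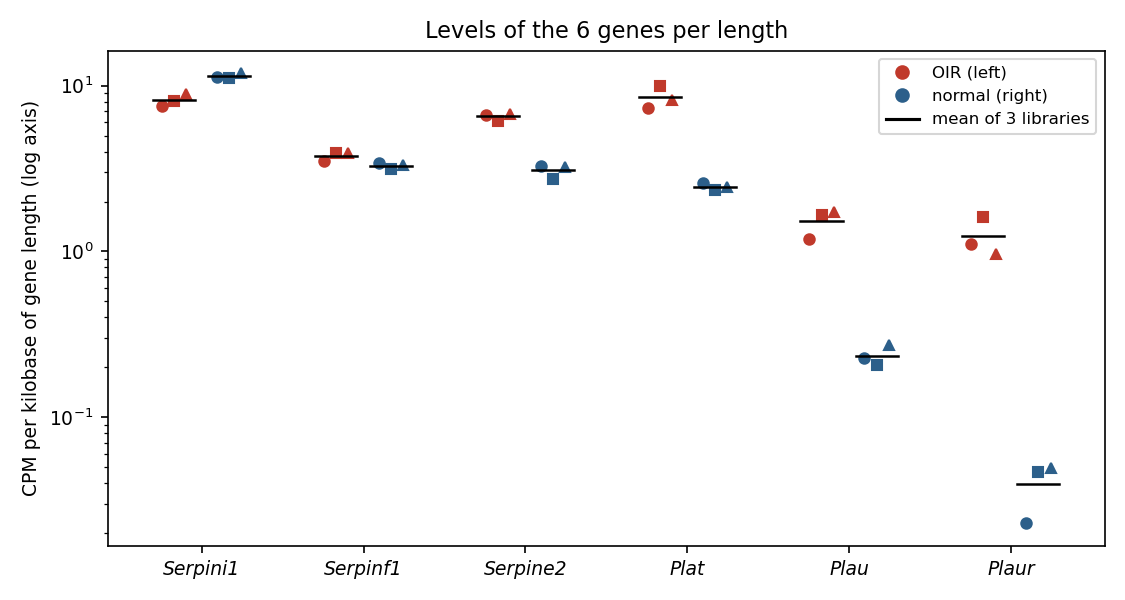
Levels of the 6 genes in CPM per kilobase of gene length on a log axis, each point a library (circles, squares and triangles for libraries 1, 2 and 3, OIR left and normal right of each pair) and each line the mean of 3. Plat is at the level of Serpini1 in OIR retina, while Serpini1 stands apart at the top in normal retina.

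Ratios within a library do not depend on its scaling, and 5 of them were computed, a choice made after the values had been seen. Plat over Serpini1, per length, was 0.978, 1.24 and 0.913 in OIR libraries 1 to 3, against 0.230, 0.211 and 0.204 in normal libraries 1 to 3. All OIR libraries lay near 1, and the geometric mean was 4.82-fold that of normal libraries. The value near 1 depends on the deposited gene lengths, whereas the fold between groups does not. Plat over Serpine2 was 1.10 to 1.63 in OIR and 0.753 to 0.850 in normal libraries, a 1.63-fold difference. Plaur over Plau was 0.556 to 0.972 in OIR and 0.100 to 0.226 in normal libraries, where it rests on 1 or 2 receptor counts. Plat over Plau ran the other way, at 4.69 to 6.18 in OIR and 8.95 to 11.4 in normal libraries; the urokinase share of activator transcripts was higher in every OIR library. Plau over Serpine2 was 0.178 to 0.271 in OIR and 0.0691 to 0.0842 in normal libraries. In none of the 5 ratios did the groups overlap. Each exact two-sided permutation test over the libraries gave p = 0.1, also after Benjamini-Hochberg adjustment over the 5. The ratios were built from genes whose groups were already seen not to overlap, so these values add no test and are a description. For Plat over Serpini1 the outcome was fixed, as a gene that rose was set over a gene that fell. No share over other gene pairs was computed.

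**Figure D3:**
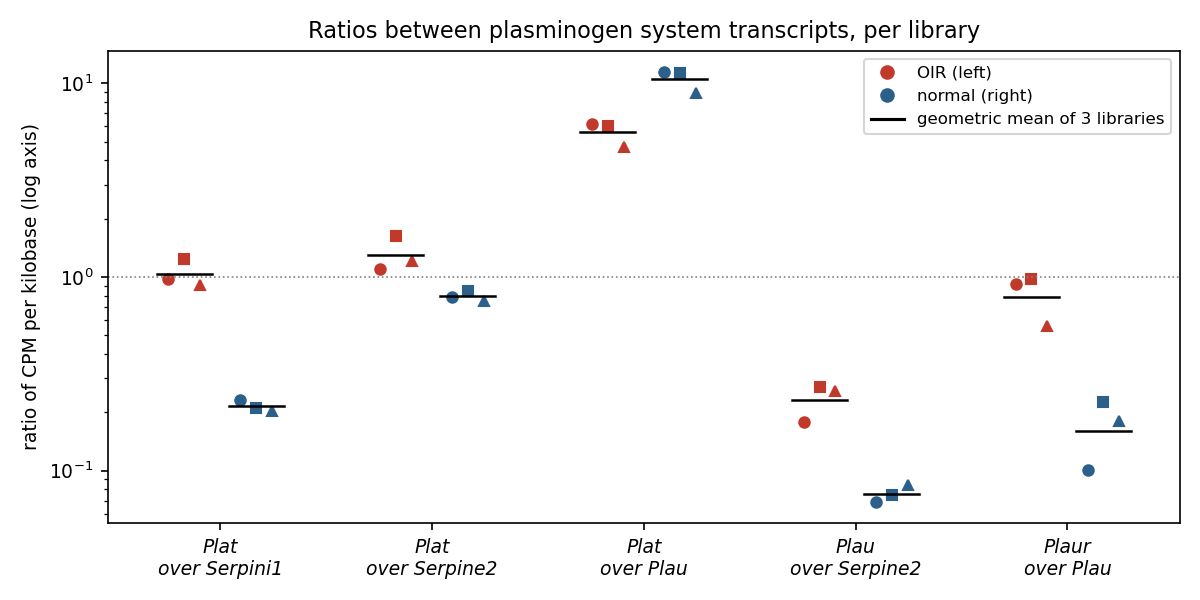
Ratios of CPM per kilobase between pairs of plasminogen system transcripts in each library, on a log axis (circles, squares and triangles for libraries 1, 2 and 3), OIR left and normal right of each pair, with the geometric mean of 3 libraries as a line. Plat over Serpini1 lies near 1 in OIR libraries and near 0.2 in normal libraries.

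The wider pathway was read from 5 lists of 30 genes, of which 20 were tested. Of these, 10 rose and 0 fell, with a median log2 change of 0.33 against 0.01 over all genes; without Normal 1, 1 gene of the lists (Lrp2) fell, and without Normal 2 another (Lrp1). DESeq2 and limma-voom also called 0 lower, and at an unadjusted edgeR p under 0.05 there was 1, Lrp2. Counts in each list are read against the 11.1% of all tested genes that were higher and the 8.73% that were lower.

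Plasminogen itself was not detected. Plg had 0 counts in every library, and 3 counts, the approximate 95% upper limit for a count of 0 (counting error only), would be 0.176 to 0.193 CPM. In the list of plasminogen and of proteases that activate it or urokinase, 3 of 7 genes were tested and 0 passed in edgeR, DESeq2 or limma-voom, with 1 (Klkb1) at an unadjusted edgeR p under 0.05. The lysosomal protease gene Ctsb averaged 455 ± 15.8 CPM in OIR and 450 ± 32.8 CPM in normal retina (SD, n = 3), with a log2 change of 0.02 that turned to −0.02 without OIR 1, −0.02 without Normal 2 and −0.0040 without Normal 3. Klkb1 (plasma prekallikrein) had a log2 change of 0.64 and St14 (matriptase) one of −0.68.

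Of the 4 cell surface receptors of plasminogen, 2 rose. Anxa2 (annexin A2), which binds plasminogen and tissue-type activator, had 62.1, 82.8 and 63.3 CPM in OIR libraries 1 to 3, against 13.8, 9.79 and 12.2 CPM in normal libraries 1 to 3, a 5.81-fold rise (log2 2.54, standard error 0.15, edgeR adjusted p of 1.83e-06). Its partner S100a10 rose 1.98-fold, with 30.0 to 40.6 CPM in OIR and 13.7 to 22.1 CPM in normal libraries (edgeR adjusted p of 0.00211). OIR 2 was the highest library for both. Plgrkt, a transmembrane plasminogen receptor, had a log2 change of 0.28 and passed only without Normal 2 (0.43, edgeR adjusted p of 0.0303). The enolase gene Eno1 had a log2 change of 0.21 with an edgeR adjusted p of 0.0825, and passed in 5 of the 15 alternatives, DESeq2 and limma-voom among them.

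Among 5 other inhibitors, A2m had enough counts to be tested. This broad trap of proteases including plasmin rose 7.43-fold to 77.2 ± 13.4 CPM in OIR, against 10.4 ± 1.14 CPM in normal retina (SD, n = 3). Serpinb2, Serpina5, Serpinf2 and Cpb2 had too few counts to be tested, with 0 to 16 counts in either group.

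Of 6 uptake and clearance receptors, 2 rose and 4 did not pass. Mrc2, a collagen uptake receptor that associates with the urokinase receptor, rose 6.55-fold, with 23.6, 27.4 and 24.1 CPM in OIR libraries 1 to 3, against 4.37, 3.77 and 3.28 CPM in normal libraries 1 to 3 (edgeR adjusted p of 1.23e-06). Igf2r rose 1.28-fold (edgeR adjusted p of 0.0104). Lrp1, which takes up complexes of activator and inhibitor, averaged 220 ± 5.86 CPM in OIR and 242 ± 27.2 CPM in normal retina, with a log2 change of −0.14 that passed without Normal 2 (−0.23, edgeR adjusted p of 0.0341). The related receptors Lrp2 and Vldlr had log2 changes of −0.27 and −0.08, and Lrp2 passed without Normal 1 (−0.39, edgeR adjusted p of 0.0186) and without the filter on low counts (−0.28, edgeR adjusted p of 0.0476). Their chaperone gene Lrpap1 stood at −0.04 on the log2 scale, and its sign changed without Normal 1 (0.02) and with library totals alone (0.0092).

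Partners of the urokinase receptor rose in 5 of 6 tested cases. The integrin genes Itgb3, Itga5 and Itgb1 rose 7.19-fold, 4.25-fold and 2.13-fold, with edgeR adjusted p of 6.65e-05, 1.23e-05 and 5.42e-06. Itgam, the alpha chain of a leukocyte integrin, rose 3.08-fold to 2.04 ± 0.125 CPM in OIR, against 0.658 ± 0.187 CPM in normal retina (SD, n = 3). Itgav rose 1.23-fold (edgeR adjusted p of 0.0144) but did not pass without OIR 2 (log2 0.24, edgeR adjusted p of 0.0992). Vtn, which encodes vitronectin, the matrix ligand of the receptor, had 475, 490 and 508 CPM in OIR libraries 1 to 3, against 579, 527 and 525 CPM in normal libraries 1 to 3. Its libraries did not overlap, but the log2 change of −0.15 did not pass (edgeR adjusted p of 0.177). Fpr1 and Fpr2 had 1 and 2 counts in OIR and 5 and 1 in normal retina and were not tested.

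**Figure D4:**
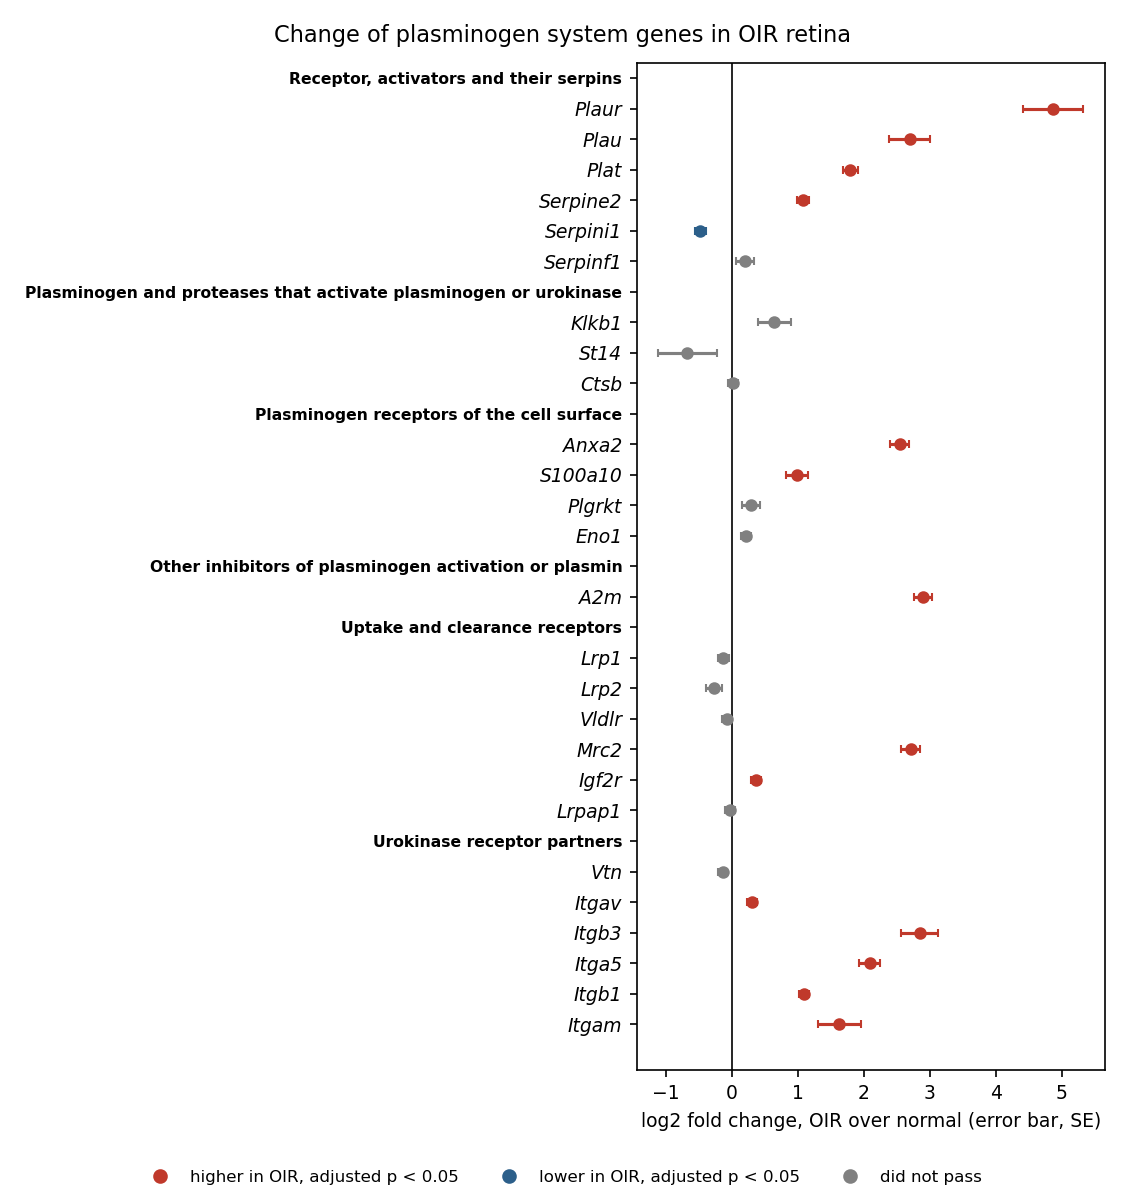
Log2 fold change of OIR over normal with its standard error for the 6 genes and the 20 tested pathway genes, grouped by role. Red points rose and the blue point, Serpini1, fell at an edgeR adjusted p under 0.05, and grey points did not pass.

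The serpin family shares the fold of the inhibitors above. Of 13 tested genes of the family, 6 rose and 1, Serpini1, fell. Among the 10 outside the 6 genes 5 rose and 0 fell, with a median log2 change of 0.97. Over all tested genes 11.1% were higher and 8.73% lower, so 0 of 10 lower is not far from that share. DESeq2 and limma-voom also called 0 of the 10 lower, as did an unadjusted edgeR p under 0.05. Serpina3n, an acute-phase serpin, changed most, at 77.7 ± 26.6 CPM in OIR and 3.45 ± 2.04 CPM in normal retina (SD, n = 3, 22.5-fold, edgeR adjusted p of 2.17e-05). Serping1, the complement C1 inhibitor, rose 4.76-fold and Serpinh1, a collagen chaperone of serpin fold without protease inhibition, 2.56-fold. Reads of Serpina3n and Serpina3g, and of Serpinb6a and Serpinb6b, may be shared between near copies and their split is uncertain.

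Cell type marker lists differed in direction. Their counts are read against all tested genes, of which 11.1% were higher and 8.73% lower. Endothelial markers rose in 7 of 8 cases, summing to 389 to 459 CPM in OIR and 191 to 247 CPM in normal libraries, and mural markers in 6 of 6, at 613 to 679 CPM in OIR and 244 to 281 CPM in normal libraries. Astrocyte markers summed to 269 to 348 CPM in OIR and 49.6 to 60.9 CPM in normal libraries, with 2 of 4 higher, mainly Gfap, and 1 lower. Of the microglia and macrophage markers 5 of 9 rose (96.1 to 132 CPM in OIR, 46.6 to 59.7 CPM in normal libraries). These were C1qa, C1qb, C1qc, Cx3cr1 and Mrc1, whereas Csf1r, Tmem119, P2ry12 and Aif1 did not pass. Of 7 stromal fibroblast markers 2 rose, the collagen genes Col1a1 and Col1a2 (list sum 50.1 to 67.4 CPM in OIR, 24.9 to 25.3 CPM in normal libraries). Dcn, Pdgfrl and Ogn did not pass, and Lum and Dpt were not tested. Müller glia markers fell in 5 of 7 cases (2870 to 3487 CPM in OIR, 3904 to 4651 CPM in normal libraries) and amacrine markers in 4 of 5 (586 to 659 CPM in OIR, 848 to 920 CPM in normal libraries). Ganglion cell markers, beside the neuronal gene Serpini1, had 0 of 7 passing in edgeR or limma-voom and 2 in DESeq2 and at an unadjusted edgeR p under 0.05, and their sums overlapped (1035 to 1129 CPM in OIR, 977 to 1588 CPM in normal libraries). Neutrophil markers were near the floor, with 0 of 7 tested and Ly6g and Elane at 0 counts. The part of these shifts in the changes of the 6 genes was not tested. Of the lens markers 0 of 6 passed in edgeR, DESeq2 or limma-voom, with 5 at an unadjusted edgeR p under 0.05. Without OIR 3, whose lens sum stood apart, the log2 changes of Plaur, Plau and Plat were 5.01, 2.58 and 1.81.

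**Figure D5:**
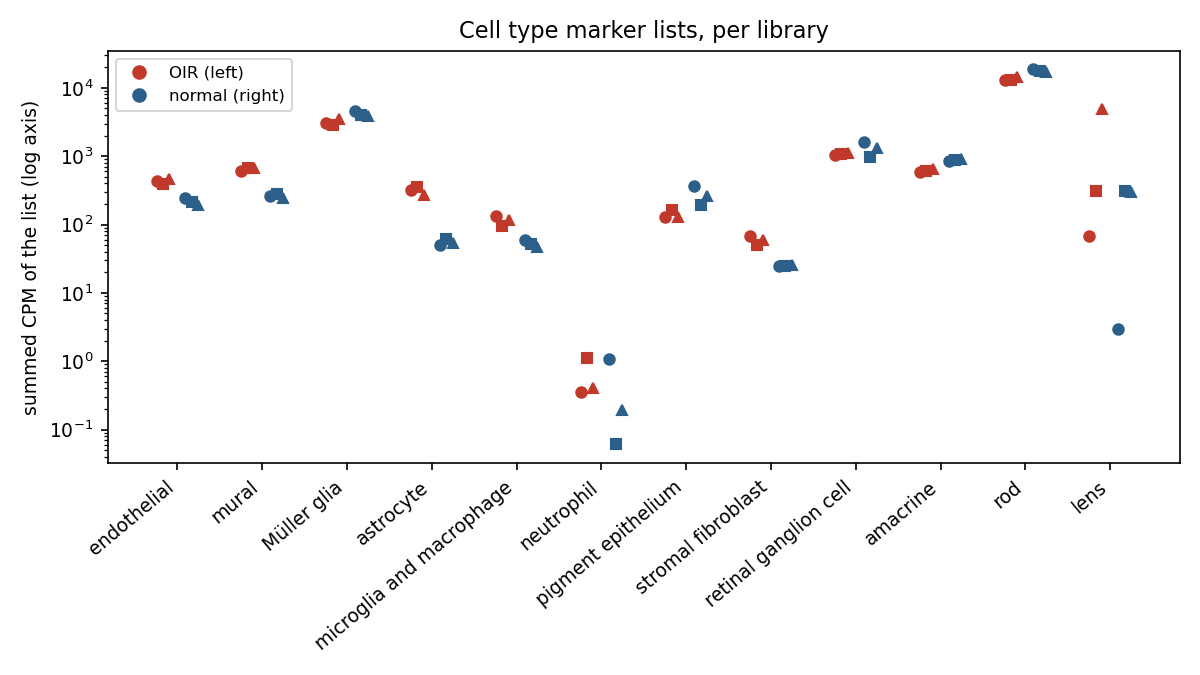
Summed CPM of each cell type marker list per library on a log axis (circles, squares and triangles for libraries 1, 2 and 3), OIR left and normal right of each pair. Endothelial, mural, astrocyte and microglial sums are higher and Müller glia and amacrine sums lower in all 3 OIR libraries, and the lens sum of OIR 3 stands apart at 4960 CPM. The astrocyte sum in OIR libraries is mostly Gfap.

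Within the OIR group the receptor, its activators and the lists did not all peak together. Of the 14 risen genes among the 6 and the lists, OIR 2 was the highest library for 9, OIR 3 for 3 and OIR 1 for 2. For OIR 2 this is 64.3%, beside 44.8% of all 1901 risen genes, and with so few genes the difference is only described. The 4 risen genes of the 6 were split evenly, 2 highest in OIR 2 and 2 in OIR 3. OIR 2 was also the male library, and of the OIR libraries it had the lowest endothelial (389 CPM), microglial (96.1 CPM), stromal fibroblast (50.1 CPM) and Müller glia (2870 CPM) marker sums. It had the highest mural (679 CPM), astrocyte (348 CPM) and pigment epithelium (163 CPM) sums, and also the highest neutrophil sum, at 1.12 CPM. The mural sum of OIR 3 was close, at 667 CPM. The astrocyte order followed Gfap (273, 299 and 213 CPM in OIR libraries 1 to 3), whereas Pdgfra was highest in OIR 3 and Pax2 lowest in OIR 2. With sex as a covariate Plaur, Plau and Plat had log2 changes of 5.03, 2.76 and 1.87 and still passed.

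By Pearson correlation of log2 CPM over the 6 libraries, among 15814 genes of at least 1 CPM, the genes most like Plaur were Piwil4, Tgfbi, Pde3b, Adgrl4 and Egr2, at 0.998 to 0.999. Piwil4 encodes a Piwi protein of small RNA pathways, Tgfbi a secreted matrix protein, Pde3b a cyclic nucleotide phosphodiesterase, Adgrl4 an adhesion receptor of endothelial cells and Egr2 a transcription factor. They averaged 6.38, 9.91, 24.4, 77.8 and 4.63 CPM in OIR, against 0.968, 1.503, 8.66, 26.4 and 0.124 CPM in normal retina, in the order named. Those most like Plat were Itgb3, Mt1, Csf2rb, Adamts4 and Pgf, also at 0.998 to 0.999. Mt1 is a metallothionein, Csf2rb a cytokine receptor chain, Adamts4 a matrix protease and Pgf placental growth factor. The points share the difference between the groups, so the coefficients are a description and carry no test.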

How the data were processed

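Retinal RNA was sequenced in 3 OIR and 3 normal libraries; per the labels' protocols, RNA was taken up in TRIzol and libraries were prepared with the NEBNext Ultra kit. The authors deposited a table of raw gene counts that also lists each gene's length, position and biotype. The submitters' processing notes name featureCounts 1.5.0-p3, HISAT2 2.0.5, fastp, CASAVA 1.8, the mm10 build and DESeq2 1.20.0. Neither the annotation release nor the strand setting is given in the sources used, and without strand, reads of a gene and an antisense partner cannot be told apart.

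Table columns were matched to samples by name: an OIR prefix marks the OIR libraries, and the remaining columns of the same day were taken as the normal libraries with that number. No library pair within a group was a duplicate: the chi-square per degree of freedom was 7.20 to 23.1 for genes whose pair total reached 40. The 6 genes, the lists and the tests were chosen with earlier results of these data known. Tests used edgeR 4.0.16 in R 4.3.3 (quasi-likelihood, TMM scaling, filterByExpr with a minimum count of 10 and a total of 15) over all 6 libraries with no covariate, and p-values were adjusted by Benjamini-Hochberg over 17108 genes. The standard error is the log2 fold change over the square root of F. CPM is relative to the TMM-scaled total of counts in tested genes. Levels of different genes were compared as CPM per kilobase of deposited gene length. Named genes are the 6 genes, each tested gene of 5 pathway lists (30 genes), the serpins with up to 4 largest rises and falls at a mean of at least 1 CPM, and the 5 genes most like Plaur and the 5 most like Plat. Other settings were DESeq2 1.42.0, limma-voom (limma 3.58.1), other scalings and filters, the replicate number as a block, sex as a covariate, each library left out, and a threshold of 0.01. Some genes of the lists are not reported here and were left out of the list counts and sums, but stayed in the fit. The tests were also run on simulated counts with far fewer changed genes than were called here. That setting does not check scaling under a shift of this size. Transcription start windows came from RefSeq (GRCm38.p6, the assembly of mm10).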

Additional observations from a re-analysis of the deposited data

How the results depend on the processing

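The 6 genes were refitted under 15 alternatives: median-of-ratios factors, library totals, DESeq2, limma-voom, both filters, the replicate number as a block, sex as a covariate, each library left out, and a threshold of 0.01. Direction and side of the threshold stayed for all 6, with log2 changes of 4.60 to 5.04 for Plaur, 2.58 to 2.84 for Plau, 1.65 to 1.88 for Plat, 1.00 to 1.13 for Serpine2, −0.56 to −0.43 for Serpini1 and 0.16 to 0.25 for Serpinf1. Libraries of the same number had correlations of 0.0888, −0.231 and 0.0924, and those of different numbers −0.249 to 0.144. With 3 pairs, and values centred within each group, these cannot settle whether the numbers pair the libraries. With the replicate block the log2 changes were 4.87 for Plaur, 2.68 for Plau, 1.78 for Plat and 1.08 for Serpine2. Those of Serpini1 and Serpinf1 were −0.48 and 0.20, beside 1680 genes higher and 1166 lower. Over all genes, leaving out single libraries gave 1237 to 2097 higher and 761 to 1734 lower, and a threshold of 0.01 gave 1116 and 647. The pathway lists had 0 lower genes, but 1 without the filter on low counts, and 0 to 1 with single libraries left out. The log2 change of Lrpap1 turned to 0.0092 with library totals and ran between −0.0829 and 0.0201 without single libraries, and that of Ctsb between −0.0249 and 0.0772; the cause was not tested. For 32 other named genes, 462 of 479 values kept direction and side, 3 no longer passed, 9 passed anew and 5 turned sign. Depth limits Plaur most, whose normal level rests on 5 counts.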
